A study of Rattus norvegicus with 6 samples.

Results

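Genes of prostaglandin synthesis and of the receptors for prostaglandin E2 were examined in RNA-seq of the IM tip (the innermost part of the inner medulla of the kidney) from control and streptozotocin (STZ) diabetic rats. The 10 genes were chosen by name: Pla2g4a, Ptgs1, Ptgs2, Ptges, Ptgds, Ptger1, Ptger2, Ptger3, Ptger4 and Hpgd. Of these, 9 had a feature of exactly that name among the 27321 features of the deposited table, and the expression of Ptger2 was not analysed here. The study asked which genes related to glycosylation of the urea transporter UT-A1 differ in diabetes; the prostaglandin genes were measured in the same libraries. All rats were male Sprague-Dawley animals, 3 months old. The STZ rats were given STZ, a toxin of pancreatic beta cells, through a tail vein at 62.5 mg/kg, the control rats were given vehicle by the same route, and the tissue of both groups was taken 15 days later. Each group had 3 libraries, called rats 1, 2 and 3 here after the numbers in their labels. Whether a library holds 1 rat or a pool is not given in the sources used here, so a rat named below is a library. The p-values measure the spread between these libraries, which may be partly technical. Whether the counting used strand is not given in the sources used here.

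Prostaglandins are made from arachidonic acid, which phospholipase A2 frees from membranes, which the cyclooxygenases turn into prostaglandin H2, and which terminal synthases turn into prostaglandin E2, D2 and others. Prostaglandin E2 acts on the EP receptors and is removed by uptake and by 15-hydroxyprostaglandin dehydrogenase. The inner medulla is known as a main site of prostaglandin E2 production in the kidney, in collecting duct cells and in lipid-laden interstitial cells, and prostaglandin E2 is known to blunt the action of vasopressin on salt and water reabsorption there.

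Ptges, the inducible microsomal prostaglandin E synthase, rose in STZ rats, and it was the only one of the 6 genes tested that passed. The cyclooxygenase genes stood the other way: the 3 STZ values of Ptgs1 were below the 3 control values, and Ptgs2 had a lower mean in STZ rats with overlapping values, but neither passed. The EP receptor genes analysed were near the background of the assay, apart from Ptger1. Values are normalized counts, that is reads on a gene divided by 1 size factor per library; a read was worth between 0.763 and 1.11 of them, and the libraries held between 3412311 and 5575171 reads on features. They are not divided by transcript length, so they compare rats. Where a marker is said to have the highest value of its list, this is in normalized counts over the 6 libraries and not per length.

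Genes were tested with limma on log2(normalized count + 1) over 13486 features, those whose mean in the 6 libraries was 5 or more, and a gene was called at an adjusted p under 0.05. Of all features tested, 283 (2.1%) were called, 158 (1.17%) higher and 125 (0.927%) lower in STZ rats. Of the prostaglandin genes, 6 were tested and 1 was called, Ptges, in the higher direction. Groups that did not overlap, with all 3 STZ values on 1 side of all 3 control values, were found for 2 of these 6 genes, Ptges and Ptgs1, beside 20.3% of all features tested. The median log2 fold change, STZ over control, was 0.34 over the 6 genes and 0.01 over all features tested; 4 of the 6 were above 0 and 2 below.

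**Figure D1:**
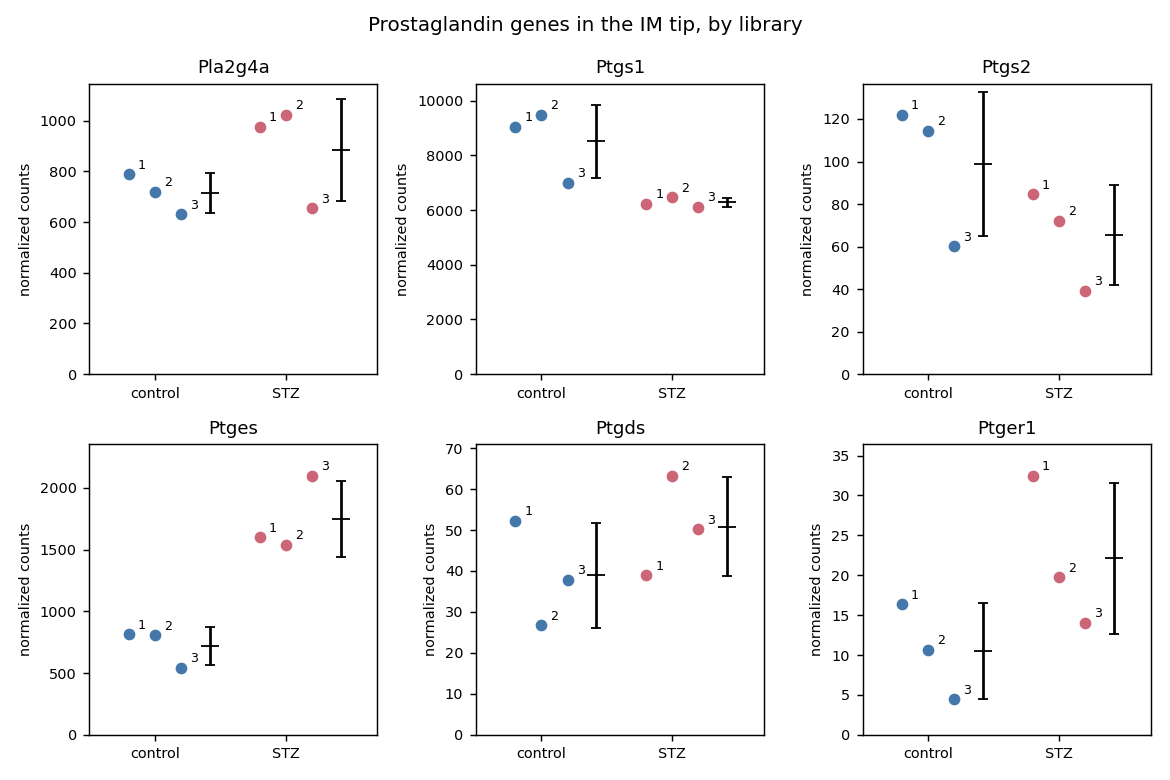
Normalized counts (vertical axis, linear, from 0) of the 6 prostaglandin genes tested, by group; each point is 1 library with its replicate number, and the bar beside the points is the mean with its SD (n = 3). Ptges lies between 544 and 815 in control and between 1538 and 2099 in STZ rats, Ptgs1 is lower in each STZ rat than in each control rat, and the groups overlap for the other 4 genes.

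Pla2g4a encodes the cytosolic phospholipase A2 that frees arachidonic acid. It lies on chromosome 13, 64135733 to 64280815, of rn4, the genome build of all gene positions in the deposited table. Pla2g4a had 788, 720 and 631 normalized counts in control rats 1, 2 and 3 and 976, 1024 and 655 in STZ rats 1, 2 and 3. STZ rats 1 and 2 were above every control rat, while STZ rat 3 lay within the control range. Pla2g4a had a log2 fold change of 0.29 ± 0.21 (SE; limma, adjusted p = 0.614).

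Ptgs1 encodes cyclooxygenase 1, the constitutive form. The feature, on chromosome 3 from 15343824 to 15365412, held 9052, 9487 and 6998 normalized counts in control rats 1, 2 and 3 and 6237, 6474 and 6124 in STZ rats 1, 2 and 3. Every STZ rat was below every control rat, and the STZ rats differed little from each other, while control rat 3 was nearer to them than to the other control rats. Mean values were 8512 ± 1330 normalized counts (SD, n = 3) in control rats and 6278 ± 179 (SD, n = 3) in STZ rats. The log2 fold change of Ptgs1 was −0.43 ± 0.22 (SE) with a 95% interval from −0.90 to 0.05, which did not pass (limma, adjusted p = 0.404). A two-sided exact permutation test gave Ptgs1 p = 0.1, which is the smallest that 3 libraries against 3 can give.

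Ptgs2 encodes cyclooxygenase 2, the inducible form, and lies 146471 bases from Pla2g4a on chromosome 13, 64427287 to 64433974. Ptgs2 had 122, 114 and 60.1 normalized counts in control rats 1, 2 and 3 and 84.5, 72.2 and 39.2 in STZ rats 1, 2 and 3. STZ rat 3 had the lowest value, and STZ rats 1 and 2 lay between control rat 3 and the other control rats, so the groups overlapped. The log2 fold change of Ptgs2 was −0.60 ± 0.34 (SE; limma, adjusted p = 0.470), and the exact permutation p was 0.3. The ratio of Ptgs2 to Ptgs1 overlapped between the groups, at 0.0135, 0.0121 and 0.00859 in control rats 1, 2 and 3 and 0.0135, 0.0112 and 0.00639 in STZ rats 1, 2 and 3.

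Ptges encodes the microsomal enzyme that turns prostaglandin H2 into prostaglandin E2. It lies on chromosome 3, 9946193 to 9957540. Ptges had 815, 808 and 544 normalized counts in control rats 1, 2 and 3 and 1599.9, 1538 and 2099 in STZ rats 1, 2 and 3. Each STZ rat was above each control rat; STZ rat 3 was the highest of all and control rat 3 the lowest. Mean values were 722 ± 154 normalized counts (SD, n = 3) in control rats and 1746 ± 308 (SD, n = 3) in STZ rats, a ratio of 2.42. The log2 fold change of Ptges was 1.28 ± 0.22 (SE) with a 95% interval from 0.80 to 1.76 (limma, adjusted p = 0.0154), higher in 3 of 3 STZ rats, and the exact permutation p was 0.1, the smallest possible. Ptges ranked 96 by p among the 13486 features tested. The call of Ptges was made in 15 of 18 alternative analyses; it was lost by limma without the intensity trend (adjusted p = 0.145), without control rat 2 (log2 fold change 1.37, adjusted p = 0.0504) and without STZ rat 3 (1.14, adjusted p = 0.0547), with adjusted p from 1.65e-06 to 0.145 over all 18. In bulk tissue, more cells of a type that uses a gene and more RNA of that gene per cell cannot be told apart, and likewise for fewer cells and less RNA. The headers give lane 3 for the 3 control libraries and lanes 7, 6 and 8 for STZ rats 1, 2 and 3, and for no gene can the lane and the diabetic state be told apart.

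The 2 other genes known to encode prostaglandin E synthases were looked at after their values had been seen. Ptges2, the membrane-associated form, had 66.6, 48.8 and 60.1 normalized counts in control rats 1, 2 and 3 and 42.7, 45.5 and 44.2 in STZ rats 1, 2 and 3. Ptges3, the cytosolic form, which is also the co-chaperone p23, had 424, 398 and 563 in control rats 1, 2 and 3 and 549.7, 546 and 629 in STZ rats 1, 2 and 3. The STZ values of Ptges2 were all below the control values, while those of Ptges3 overlapped with them. Neither passed the test (limma, log2 fold change −0.39 with adjusted p = 0.483 for Ptges2, and 0.33 with adjusted p = 0.481 for Ptges3).

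Ratios of 2 genes within a library do not depend on how libraries are scaled. They were chosen after values had been seen, and no test was made of them. Ptges over Ptgs1 was 0.0900, 0.0851 and 0.0778 in control rats 1, 2 and 3 and 0.257, 0.238 and 0.343 in STZ rats 1, 2 and 3. The control rats were close together and every STZ rat was above them, with a mean of 0.0843 ± 0.00617 (SD, n = 3) in control rats and 0.279 ± 0.0561 (SD, n = 3) in STZ rats. Ptges over Ptgs2 was 6.68, 7.06 and 9.06 in control rats 1, 2 and 3 and 18.9, 21.3 and 53.6 in STZ rats 1, 2 and 3. Ptges over Ptges2 was 12.2, 16.5 and 9.06 in control rats 1, 2 and 3 and 37.5, 33.8 and 47.5 in STZ rats 1, 2 and 3. In both of these ratios all STZ rats were above all control rats. For Ptges over Ptgs2, STZ rat 3 stood far above the other STZ rats, being highest in Ptges and lowest in Ptgs2. Ptgs1 and Ptges2 were lower, and Ptges higher, in every STZ rat than in every control rat. The ratios of Ptges to them had therefore to separate, and add nothing to the values of the genes. Ptges over Ptges3 and over Pla2g4a did not overlap either. There the mean in STZ rats was 1.84 and 2.10 times that in control rats, beside 3.31 times for Ptges over Ptgs1.

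**Figure D2:**
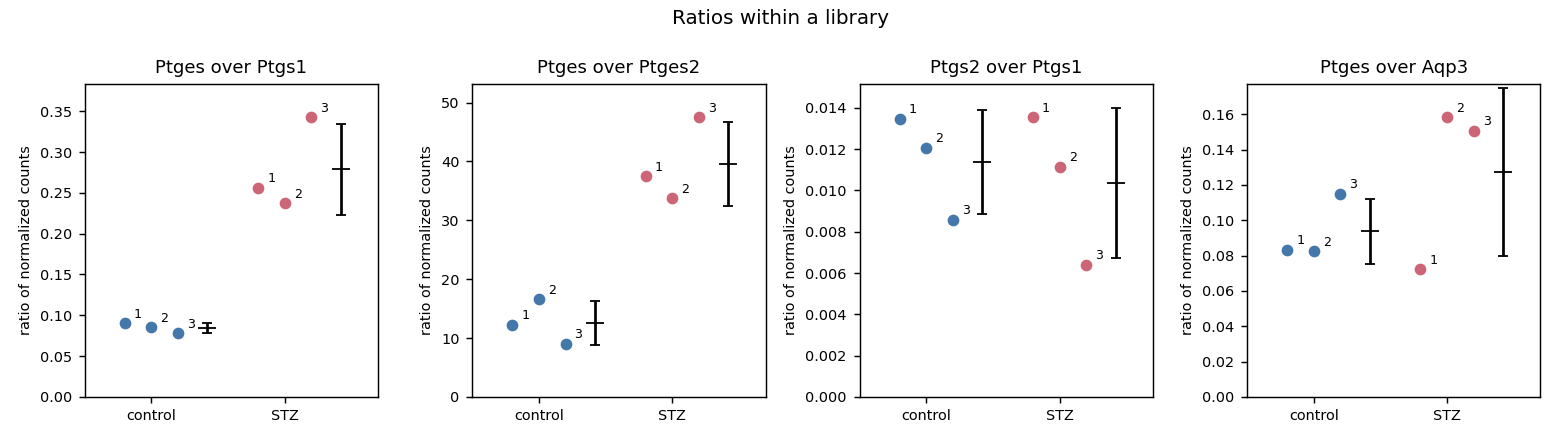
Ratios of normalized counts within each library (vertical axes, linear, from 0), by group; each point is 1 library with its replicate number, and the bar beside the points is the mean with its SD (n = 3). Ptges over Ptgs1 and Ptges over Ptges2 do not overlap between the groups, while Ptgs2 over Ptgs1 and Ptges over Aqp3, a collecting duct water channel, do. For Ptges over Ptgs1 and over Ptges2 this follows from the values of the genes, which separate in opposite directions. Aqp3 was chosen after values had been seen. Against other collecting duct markers, the Ptges ratios overlap for Aqp2 and do not for Fxyd4.

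Ptgds encodes the lipocalin-type prostaglandin D synthase, which uses the same prostaglandin H2. Its feature on chromosome 3, 3632682 to 3635617, had 52.3, 26.7 and 37.8 normalized counts in control rats 1, 2 and 3 and 39.0, 63.3 and 50.2 in STZ rats 1, 2 and 3. STZ rat 2 was the highest, and STZ rats 1 and 3 lay within the control range. For Ptgds the log2 fold change was 0.40 ± 0.30 (SE; limma, adjusted p = 0.628).

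The EP receptors pass the prostaglandin E2 signal into the cell: EP1 raises calcium, EP3 lowers cyclic AMP, and EP2 and EP4 raise it. Background was read from the 836 olfactory receptor genes, whose 95th percentile was 2.05, 6.29 and 10.02 normalized counts in control rats 1, 2 and 3 and 1.86, 5.93 and 9.03 in STZ rats 1, 2 and 3. A count of at most 3 reads, that is 2.29 to 3.34 normalized counts, was taken as the floor; it covers counting error only, since the cDNA was amplified by PCR and reads without molecular identifiers are not independent molecules.

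Ptger1, the gene of EP1 on chromosome 19, 26160727 to 26163156, was the only EP receptor gene tested. Ptger1 had 16.4, 10.7 and 4.45 normalized counts in control rats 1, 2 and 3 and 32.5, 19.8 and 14.1 in STZ rats 1, 2 and 3. It was above the olfactory background in 5 of 6 rats, the exception being control rat 3. STZ rats 1 and 2 were above every control rat and STZ rat 3 was below control rat 1, so the groups overlapped. Ptger1 had a log2 fold change of 1.08 ± 0.50 (SE) with a 95% interval from −0.02 to 2.18, which did not pass (limma, adjusted p = 0.348). Its feature lies inside a longer one that joins Tecr and Ddx39 and held a read in STZ rat 1 alone, 0.929 normalized counts.

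Ptger3, the gene of EP3 on chromosome 2, 255680690 to 255759202, was under the mean of 5 needed for the test. Ptger3 had 4.10, 3.81 and 8.90 normalized counts in control rats 1, 2 and 3 and 1.86, 7.91 and 2.01 in STZ rats 1, 2 and 3. It was above the olfactory background in control rat 1 and STZ rat 2 alone, and the groups overlapped. With a minimum mean of 1 or no filter, limma tested Ptger3, Ptger4 and Hpgd too and called none of them, with adjusted p from 0.836 to 0.987. Ptger4, the gene of EP4 on chromosome 2, 54423274 to 54434520, had 2.05, 2.29 and 1.11 normalized counts in control rats 1, 2 and 3 and 0.929, 2.97 and 0 in STZ rats 1, 2 and 3. All 6 values of Ptger4 were at or under the floor of 3 reads, so a difference was not detectable at this depth.

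Hpgd encodes 15-hydroxyprostaglandin dehydrogenase, which starts the breakdown of prostaglandin E2. The feature on chromosome 16, 37419901 to 37457896, had 1.03, 3.05 and 3.34 normalized counts in control rats 1, 2 and 3 and 0.929, 1.98 and 8.03 in STZ rats 1, 2 and 3. Hpgd was above the floor in 2 of 6 rats and above the olfactory background in 0 of 6. A difference in Hpgd was not detectable at this depth.

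The wider pathway was described with lists of 35 other prostanoid genes and 17 lipoxygenase and epoxide genes. Of the other prostanoid genes, which take in further phospholipases, prostanoid synthases and reductases, transporters and the other prostanoid receptors, 34 had a feature and 20 were tested. None of the 20 was called by limma, with log2 fold changes from −0.69 (Mgll, a lipase of monoacylglycerols) to 0.76 (Pla2g2a, a secreted phospholipase A2), a median of 0.23 and adjusted p from 0.449 to 0.985. Of these log2 fold changes 15 were above 0 and 5 below. Pla2g2a was under the olfactory background in control rat 3, at 7.79 normalized counts. Over all features tested, 1988 had an unadjusted p under 0.05. The groups did not overlap for 3 of the 20, beside 20.3% of all features tested. They are named after their values were seen: Pla2g15, a lysosomal phospholipase, and Ptges2 were lower in all STZ rats, and Ptgfrn, a regulator of the prostaglandin F receptor, was higher. Akr1b1, aldose reductase, which is also known to form prostaglandin F2 alpha and is named here for its high values, had 235588, 222487 and 187354 normalized counts in control rats 1, 2 and 3 and 194494, 261675 and 224775 in STZ rats 1, 2 and 3. The Akr1b1 values of the groups overlapped (limma, log2 fold change 0.07, adjusted p = 0.970).

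The list of lipoxygenase and epoxide genes also takes in enzymes and receptors of leukotrienes. Of its genes 12 had a feature and 9 were tested. Of these 1 was called, higher in STZ rats, beside 1.17% of all features tested that were called higher. This was Alox15b, a lipoxygenase of arachidonic acid, on chromosome 10, 55950989 to 55960265. Alox15b had 116, 42.0 and 42.3 normalized counts in control rats 1, 2 and 3 and 466, 374 and 246 in STZ rats 1, 2 and 3. Every STZ rat was above every control rat, and control rat 1 was well above the other control rats. For Alox15b the log2 fold change was 2.55 ± 0.38 (SE; limma, adjusted p = 0.00754), and it was called in 17 of 18 alternatives, the exception being limma without the intensity trend (adjusted p = 0.118, range over alternatives 1.28e-08 to 0.118). The other 8 genes of the list had log2 fold changes from −0.49 (Alox15) to 1.21 (Dpep1) and limma adjusted p from 0.441 to 0.999. With 1 library left out in turn, Alox15 ran from −0.81 to −0.06 and Dpep1 from 0.54 to 1.93. Dpep1 was low: its values in control rats 1 and 2, 2.05 and 6.10 normalized counts, were no higher than the olfactory background there.

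**Figure D3:**
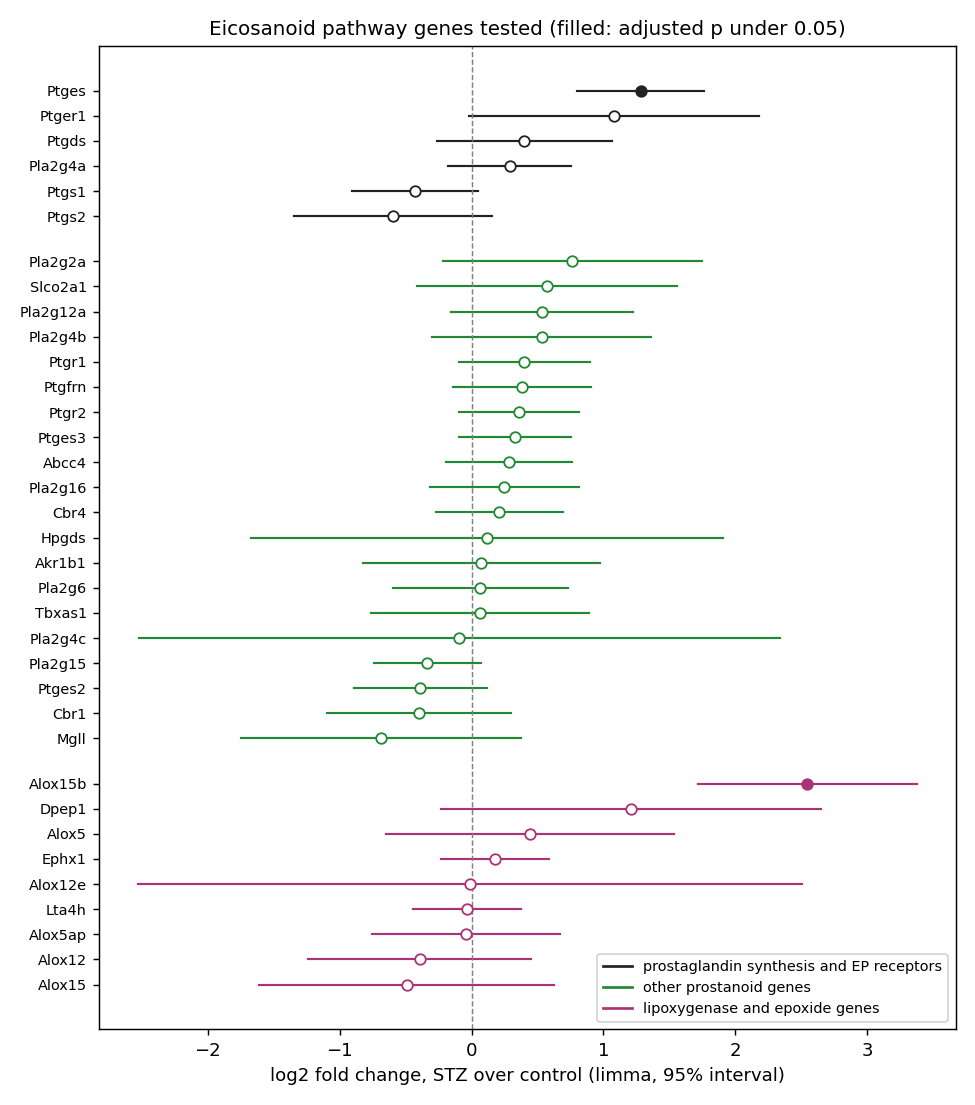
Log2 fold change of STZ over control rats (horizontal axis; values are log2 of the normalized count + 1) with its 95% interval from limma, for the 6 prostaglandin genes, the 20 other prostanoid genes and the 9 lipoxygenase and epoxide genes tested. Filled points passed at an adjusted p under 0.05, which were Ptges at 1.28 and Alox15b at 2.55; the intervals of the other genes include 0.

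Features whose values ran most like those of Ptges were sought by Pearson's r of log2(normalized count + 1) over the 6 libraries, as a description of these libraries, whose groups differ in Ptges. The 3 highest were Sfrp4, a secreted Wnt antagonist, with r = 0.994, a feature that merges Mpv17l2 and Rab3a with r = 0.987, and Vgll1, a transcription cofactor, with r = 0.985. Among the 13486 features tested, 194 other than Ptges had an r above 0.9. Sfrp4 had 20.5, 19.8 and 14.5 normalized counts in control rats 1, 2 and 3 and 35.3, 39.6 and 47.2 in STZ rats 1, 2 and 3. As with Ptges, control rat 3 was the lowest and STZ rat 3 the highest, a likeness for which Sfrp4 was picked. Of these 3 features, the merged one and Vgll1 passed (limma, adjusted p = 0.0238 and 0.0381) and Sfrp4 did not (0.0756).

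Cell type markers were read to show what else moved with the prostaglandin genes. They take in markers of other kidney segments, and whether the dissection was alike in the groups was not tested. Markers were matched by exact name, and features that merge several genes were not used. Of 6 collecting duct markers 5 had a feature of exactly that name and were tested, with log2 fold changes from 0.12 to 0.93 and a median of 0.84, all above 0 and none called. The value of 0.12 was that of Aqp4, a water channel named after its values were seen. With 1 library left out in turn it ran from −0.009 to 0.32. The groups did not overlap for 2 of the 5, beside 20.3% of all features tested: Aqp2 and Scnn1g, a subunit of the epithelial sodium channel, both higher in STZ rats and named after their values were seen. The highest was Fxyd4, a subunit of the sodium pump, with 35824, 30272 and 21951 normalized counts in control rats 1, 2 and 3 and 46287, 24308 and 39642 in STZ rats 1, 2 and 3. The summed collecting duct markers overlapped, at 54520, 47949 and 32712 in control rats 1, 2 and 3 and 81648, 42613 and 62919.8 in STZ rats 1, 2 and 3. Set against Aqp3, a collecting duct water channel chosen after values had been seen, the groups overlapped for Ptges, as they did against Aqp2, another such channel chosen likewise: the ratio to Aqp3 was 0.0833, 0.0826 and 0.115 in control rats 1, 2 and 3 and 0.0723, 0.158 and 0.151 in STZ rats 1, 2 and 3. STZ rat 1 had the lowest of these ratios and STZ rats 2 and 3 the highest. Against Fxyd4 the Ptges ratios did not overlap, at 0.0228, 0.0267 and 0.0248 in control rats 1, 2 and 3 and 0.0346, 0.0633 and 0.0530 in STZ rats 1, 2 and 3. Set against the rest of the list, they did not overlap for Aqp4 and did for Scnn1g. Aqp4 had 5959, 4188 and 3787 normalized counts in control rats 1, 2 and 3 and 5633, 4586 and 4737 in STZ rats 1, 2 and 3. Scnn1g had 85.1, 64.1 and 109 in control rats 1, 2 and 3 and 201, 184 and 113 in STZ rats 1, 2 and 3.

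Among the other marker lists, those of the urothelium and of smooth muscle summed higher in STZ rats, as Ptges was higher. Their counts stand beside 1.17% of all features tested called higher and 0.927% called lower, as do those of the lists after them. Of 7 urothelial markers 5 were tested and 2 were called higher, Upk3a, the highest in counts, and Upk1b (log2 fold changes 3.30 and 1.25), and the list summed to 112, 85.4 and 132 normalized counts in control rats 1, 2 and 3 and 440, 517 and 475 in STZ rats 1, 2 and 3. Of 6 smooth muscle markers 3 were tested and 1 was called higher, Tagln, the highest in counts (1.34), and the list summed to 343, 355 and 385 in control rats 1, 2 and 3 and 729, 743 and 717 in STZ rats 1, 2 and 3. Neither sum overlapped between the groups, but without Tagln the smooth muscle sum did, at 163, 103 and 152 in control rats 1, 2 and 3 and 183, 159 and 174 in STZ rats 1, 2 and 3, while the urothelial sum without Upk3a did not. Of 8 interstitial markers 7 were tested and 1 was called, Pdgfra (1.03, higher), while Dcn, the highest in counts, was not, and the sums overlapped, at 9252, 7691 and 9105 in control rats 1, 2 and 3 and 11099, 8199.5 and 5006 in STZ rats 1, 2 and 3. Without Dcn the interstitial sums did not overlap, at 948, 963 and 1281 in control rats 1, 2 and 3 and 1897, 1571 and 1699.5 in STZ rats 1, 2 and 3. Without Pdgfra as well they overlapped, at 443, 544 and 599.9 in control rats 1, 2 and 3 and 687, 523 and 737 in STZ rats 1, 2 and 3. The part of these markers in the Ptges result was not tested.

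The lists of intercalated cells, thick ascending limb, proximal tubule and endothelium summed lower in STZ rats, as the values of Ptgs1 were lower. Of 5 intercalated cell markers 4 were tested and 3 were called lower, Atp6v1b1, Atp6v0d2 and Slc4a1, of which Slc4a1 was the highest in the mean of all 6 libraries and Atp6v1b1 in control rats (197 against 171), and the list summed to 775, 475 and 523 in control rats 1, 2 and 3 and 209, 241 and 176 in STZ rats 1, 2 and 3. Of 5 thick ascending limb markers 4 were tested and 2 were called lower, Umod and Egf, with Slc12a1 the highest in counts, and the list summed to 1483, 1641 and 2173 in control rats 1, 2 and 3 and 834, 583 and 397 in STZ rats 1, 2 and 3. Of 5 proximal tubule markers 3 were tested and 1 was called lower, Kap, the highest in counts, and the sums were 189, 231 and 338 in control rats 1, 2 and 3 and 82.6, 47.5 and 110.4 in STZ rats 1, 2 and 3. None of these sums overlapped between the groups, but without Kap the proximal tubule sum did, at 14.4, 35.9 and 55.7 in control rats 1, 2 and 3 and 17.6, 26.7 and 55.2 in STZ rats 1, 2 and 3. Of 7 endothelial markers 6 were tested, Emcn, the highest in counts, and Plvap were called lower and Vwf higher, and the sums were 9108, 7039 and 7503 in control rats 1, 2 and 3 and 4043, 4217 and 3842 in STZ rats 1, 2 and 3. The endothelial sums did not overlap with Emcn included and did without it. Taken singly, the groups did not overlap for 5 of the 6 endothelial markers, 4 lower in STZ rats and 1 higher. The lower ones take in Cdh5 and Tek, which were not called and are named after their values were seen. The groups also did not overlap for 4 of 4 intercalated cell, 4 of 4 thick ascending limb and 1 of 3 proximal tubule markers, all lower. These stand beside 20.3% of all features tested. No marker was called among 6 tested for macrophages and leukocytes (highest Cd14) and 2 tested for mast cells (Kit), and of the mast cell list Tpsab1 was at 0 in every library. The part of these markers in the values of Ptgs1 was not tested. Of the marker calls, that of Upk1b was made in 10 of 18 alternatives, that of Slc4a1 in 11 and those of Pdgfra, Vwf and Plvap in 12 each, while the others were made in 16 to 18.

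The RefSeq promoter table (build GRCr8, a later build than rn4) holds all 10 genes. The 250 bases before the start of each gene were searched on both strands for the cyclic AMP response element TGACGTCA and its core TGACG, which overlap, for SP1 (GGGCGG), the E-box (CACGTG), the TATA box (TATAAA), C/EBP (TTGCGCAA), the tonicity element TonE and 2 forms of the NF-kB element. GGGCGG was found in 6 of the 10 genes, Ptgs2, Ptges, Ptgds, Ptger1, Ptger3 and Hpgd, and in 30.5% of all 33469 promoters of the same length. TGACG was found in Hpgd alone (18.2% of all promoters), CACGTG in Ptgs2 alone (5.59%) and TATAAA in Pla2g4a alone (12.9%). The other motifs were found in 0 of the 10; of all promoters, 1.59% hold TGACGTCA, 0.140% TTGCGCAA, 4.54% TonE, and 0.0956% and 0.0687% the NF-kB forms. A match is a description of the letters in this window.

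The stretches of Ptges and Ptgs1 are shown because these were the genes whose groups did not overlap, in opposite directions. Capitals mark matches to the motifs; in Ptges this is GGGCGG, whose first base lies 87 bases before the start, and Ptgs1 has no match. The Ptges stretch is chr3:34586988-34587237 on the minus strand and that of Ptgs1 is chr3:39981169-39981418 on the plus strand, both of GRCr8 and both written 5′ to 3′.
Ptges: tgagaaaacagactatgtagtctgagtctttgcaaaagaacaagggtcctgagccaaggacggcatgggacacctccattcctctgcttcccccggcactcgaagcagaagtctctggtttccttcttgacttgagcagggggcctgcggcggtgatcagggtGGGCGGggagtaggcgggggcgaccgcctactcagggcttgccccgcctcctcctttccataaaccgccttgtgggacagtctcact
Ptgs1: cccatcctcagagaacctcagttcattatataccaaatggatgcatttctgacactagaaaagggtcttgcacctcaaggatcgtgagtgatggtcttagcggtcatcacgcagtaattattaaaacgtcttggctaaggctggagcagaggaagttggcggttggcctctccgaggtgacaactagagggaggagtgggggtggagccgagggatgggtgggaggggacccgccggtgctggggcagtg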

How the data were processed

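Reads had been aligned by the authors with STAR 2.3.1t (build rn4), counted per gene of an Ensembl annotation and divided by DESeq 1.16.0 size factors; the deposited signal is this normalized count. Dividing by each library's step gave whole reads for 100% of values (tolerance 1e-06), so count models could be run as alternatives. The main test was limma 3.58.1 (R 4.3.3) with an intensity trend, fitted to log2(normalized count + 1) of features whose mean was 5 or more, with Benjamini-Hochberg adjustment and a threshold of 0.05. Log2 fold changes on this scale understate the change of low genes. Single genes were also compared by two-sided exact permutation tests.

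Alternatives were edgeR 4.0.16 (quasi-likelihood, TMM), which called 287 features on the recovered reads, DESeq2 1.42.0, which called 599, equal library totals, quantile normalization, pseudocounts of 0.5 and 5, minimum means of 1 and 20, no filter, limma with robust moderation or without the trend, the replicate number as a block, and each library left out in turn. The members and lists were chosen with earlier results of these data known. The study's own list of its most changed genes in these libraries holds Upk3a, Umod, Egf, Kap and Alox15b. Named were all members and the 3 features most like a called member. In each of the wider pathway lists, genes that passed were named, as were those with the lowest or highest log2 fold change among the genes not called. Markers were named that had the highest mean normalized count, were called or were at 0. Any other gene is marked as chosen after its values were seen. The sums of marker lists without their highest gene, and without Dcn and Pdgfra, were added after the values had been seen. The expression of listed genes without a feature of that name, protein sequences and exon positions were not analysed here. A further marker list is not reported here.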

Additional observations from a re-analysis of the deposited data

How the results depend on the processing

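No log2 fold change of the 6 prostaglandin genes tested or of Alox15b changed sign under any alternative that could be fitted. The log2 fold change of Ptges ran from 1.09 to 1.38 over the libraries left out in turn, and limma without the intensity trend left it at 1.28 but not called (adjusted p = 0.145, range over its alternatives 1.65e-06 to 0.145). Without the trend, 0 genes of the prostaglandin list and 0 of the wider list were called, beside 1 each with it; the cause was not tested. Leaving out 1 library gave 0 to 1 called genes of the prostaglandin list, the call being lost without control rat 2 or STZ rat 3. The 5 other prostaglandin genes tested were called under none of the 18 alternatives, or for Ptger1 none of the 16 that gave it an adjusted p, with adjusted p for Ptgs1 from 0.0905 to 0.830 and for Ptgs2 from 0.126 to 0.826. Single libraries moved several of these log2 fold changes by over 1.5 times: Pla2g4a ran from 0.17 (without STZ rat 2) to 0.49 (without STZ rat 3), Ptgs2 from −0.92 (without control rat 3) to −0.27 (without STZ rat 3), Ptgds from 0.16 (without control rat 2) to 0.63 (without control rat 1) and Ptger1 from 0.62 (without control rat 3) to 1.46 (without control rat 1).

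Of all features, 283 were called, 501 with quantile normalization, 31 by limma without the trend, 599 by DESeq2 and 88 (without STZ rat 2) to 352 (without control rat 3) with 1 library left out; leaving out any library but control rat 3 moved this count by over 1.5 times. With the replicate number as a block 561 were called, and the calls of Ptges and Alox15b were made there too. Deviations of same-numbered libraries correlated with r = 0.395, −0.0612 and 0.323 for numbers 1, 2 and 3 (across 9315 features, which are not independent replicates), and not every library correlated best with its own number, so the numbers were not taken to pair the rats. Depth limits Ptger3, Ptger4 and Hpgd, whose values are a few reads.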
